A study of Mus musculus with 10 samples.

Results

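Primordial germ cells (PGCs), the embryonic founders of eggs and sperm, were set against 2 kinds of cultured mouse stem cells, and the differences that held against both are described. The comparison used 6 of the 10 RNA-seq libraries of the series, 2 each of PGCs, ESCs and pESCs, chosen by their labels. The remaining 4 libraries, of PGC-like cells made in culture from either line, only helped to estimate the spread between replicates. All cells carry the C57BL6 label. ESCs are female embryonic stem cells from fertilized embryos, and pESCs are stem cells from parthenogenetically activated oocytes, which hold maternal chromosomes alone. By the methods of the study, both lines carried a β-Actin-GFP transgene, were derived on mouse embryonic fibroblast feeders and were kept in medium with serum and LIF. The first outgrowths were cultured with a kinase inhibitor and LIF. Before PGC-like cells were induced, both lines were also kept in another medium with inhibitors and LIF. The methods do not say which culture was sequenced. PGCs were sorted from dissected gonads of female embryos by SSEA1, with or without CD61. The labels give no embryonic day for the PGCs, and they name 1 kind of line for each stem cell group. Cell type, culture against embryo and the sort itself therefore cannot be told apart in any difference below. The study calls the libraries of a group biological replicates, and the labels do not say which cultures or embryos they came from, so p-values measure the spread between these samples.

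PGCs keep part of the pluripotency programme of the early embryo while they switch on genes of the germ line, erase DNA methylation and then, in females, enter meiosis in the fetal gonad. Entry into meiosis is triggered by retinoic acid and BMP signals through Stra8 in cells that DAZL has made competent. In stem cells many of the same germ line genes are kept silent by promoter methylation and by the PRC1.6 complex, whose MGA and MAX subunits bind the E-box CACGTG and whose E2F6 subunit binds the sequence TCCCGC.

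The deposited values are TPM, in which the reads on each gene are divided by its length and each library is scaled to the same total of 1000000. Reads recovered from the TPM were 14552664 and 18572901 for ESCs, 12176509 and 12949274 for pESCs, and 11140810 and 16434322 for PGCs. Genes at 1 TPM or more numbered 15886 and 15174 in PGCs and 12129 to 12949 in the stem cells. Mitochondrial genes, ribosomal RNA genes included, took 20.2% and 21.6% of the TPM in PGCs and 13.2% to 16.9% in the stem cells. The 13 of them that encode proteins summed to 98772 and 117790 TPM in PGCs and 99516 to 132150 TPM in the stem cells. Without all mitochondrial genes and those of ribosomal proteins, with the rest rescaled, 6521 genes were higher and 1720 lower against both lines. This compares with the 5904 and 1716 given next. Of the genes, 16579 reached 1 TPM in 2 or more of the 6 libraries and were tested. Across them Pearson's r of log2(TPM + 1) was 0.966 between the PGC libraries and 0.730 to 0.767 between a PGC and a stem cell library. This describes genes, which are not independent replicates.

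With limma, 5904 genes were higher and 1716 lower in PGCs than in both stem cell lines, that is, at an adjusted p under 0.05 and at least 2-fold in each comparison. These are 35.6% and 10.4% of all genes tested, and every count over a gene list below is to be read against them. Of the tested genes 3470 did not reach 1 TPM in 2 stem cell libraries and passed the filter only with the PGC libraries. None of these was lower and 68.7% were higher, against 26.9% higher and 13.1% lower of the 13109 that passed through the stem cells. Fold changes are log2 differences of TPM + 1, each with its standard error (SE) after ±, with the value against ESCs first and that against pESCs next, and the adjusted p given is the larger of the 2. Both comparisons share the PGC libraries and are not independent. In bulk libraries fewer cells of a type and less RNA per cell cannot be told apart. Against ESCs alone 6277 genes (37.9%) were higher and 2509 (15.1%) lower, and against pESCs alone 7222 (43.6%) were higher and 1998 (12.1%) lower. For 2 libraries on each side the smallest two-sided p of an exact permutation test is 0.333, so single genes have no such test here and limma's model of the spread over all genes carries the p-values. The split between higher and lower depended on how libraries were scaled. The median log2 fold change over all genes was 0.61 against ESCs and 0.82 against pESCs, and changes are to be read relative to these shifts. After quantile normalization 3250 genes were higher and 2939 lower, after centring on the median of genes expressed in every library 2592 and 3606. Under all 3 scalings 2543 genes (15.3%) were higher and 1695 (10.2%) lower. The plot of calls under each scaling shows the change of split, and 1695 of the 1716 lower and 2543 of the 5904 higher genes were called in all 3.

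**Figure D1:**
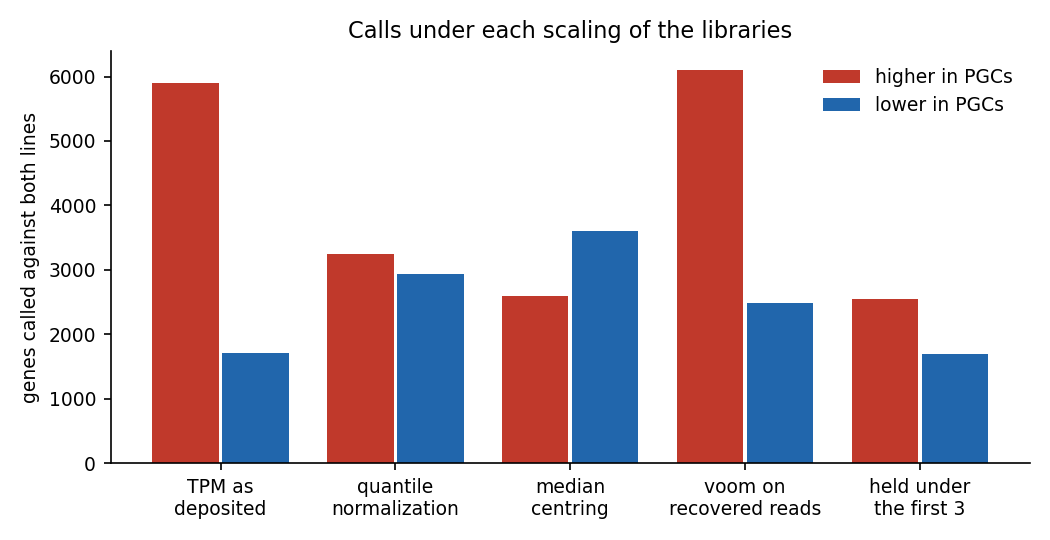
Number of genes called against both stem cell lines (vertical axis) under each scaling, higher in PGCs in red and lower in blue. The TPM as deposited gave 5904 higher and 1716 lower genes, median centring 2592 and 3606, and 2543 and 1695 were called under the first 3 scalings together.

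Among protein-coding genes that separated the PGC libraries from all 4 stem cell libraries, the largest differences upward were in haemoglobin genes and in genes of germ cells. Both PGC libraries lay above all 4 stem cell libraries for 53.9% of the genes tested and below them for 19.5%. Of the 12 genes with the largest rise, 4 encode haemoglobin chains and the other 8 were Tex13b, Slc25a31, Dazl, Tex12, Mael, Rbm46, Ddx4 and Scml2. Tex13b, a testis-expressed gene on chromosome X from 140808307 to 140813433 (GRCm38), was at 257 and 197 TPM in PGCs, 0.271 and 0.330 TPM in ESCs and 0 and 0.330 TPM in pESCs (log2 fold changes 7.44 ± 0.20 and 7.62 ± 0.20, adjusted p = 2.91e-07). Slc25a31, the germ cell form of the mitochondrial ADP/ATP carrier on chromosome 3 from 40708855 to 40726096, was at 277 and 495 TPM in PGCs against 0.374 to 1.90 TPM in the stem cells (log2 fold changes 7.32 ± 0.37 and 7.54 ± 0.37, adjusted p = 1.57e-06). Scml2, a germ line Polycomb protein on chromosome X from 161117193 to 161258213, was at 78.2 and 93.5 TPM in PGCs against 0.225 to 0.683 TPM (log2 fold changes 6.01 ± 0.19 and 5.91 ± 0.19, adjusted p = 4.58e-07). For each of these genes both PGC libraries were far above the highest stem cell library. All 12 genes were called under all 3 scalings.

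The 12 largest differences downward were in Tdgf1, Ubd, Gpx2, Apela, Upp1, Apoa2, Mt2, Spp1, Pla2g1b, Zfp978, Mt1 and Serpinb6c, each abundant in both stem cell lines. Tdgf1 (Cripto), the co-receptor of Nodal on chromosome 9 from 110939603 to 110946158, was at 576 and 597 TPM in ESCs, 426 and 600.1 TPM in pESCs and 0.538 and 0.296 TPM in PGCs (log2 fold changes -8.70 ± 0.34 and -8.49 ± 0.34, adjusted p = 7.6e-07). Spp1 (osteopontin), a secreted phosphoprotein on chromosome 5 from 104435118 to 104441050, was at 5710.3 and 6384 TPM in ESCs, 5612 and 8221 TPM in pESCs and 56.4 and 111 TPM in PGCs (log2 fold changes -6.24 ± 0.37 and -6.41 ± 0.37, adjusted p = 3.16e-06). Mt1 and Mt2 bind zinc and other metals, and they lie side by side on chromosome 8. Mt2 was at 3460.3 and 4088 TPM in ESCs, 4549.7 and 3812 TPM in pESCs and 49.1 and 34.5 TPM in PGCs (log2 fold changes -6.48 ± 0.20 and -6.63 ± 0.20, adjusted p = 3.39e-07). Mt1 had log2 fold changes of -6.05 and -6.10 (adjusted p = 5.25e-07). Ubd, a ubiquitin-like protein, was at 0 TPM in both PGC libraries against 192 to 287 TPM in the stem cells. At a floor of 3 reads per library it was lower by at least 634-fold against ESCs and at least 516-fold against pESCs. Apoa2 and Serpinb6c were also at 0 in both PGC libraries, with 109.8 to 145 TPM and 55.6 to 93.3 TPM in the stem cells. Of Zfp978, 60.5% of the 100-base stretches occur in other genes, mainly Zfp600, so reads of that zinc finger family could have been split or shared. All 12 of these genes kept their calls under the 3 scalings.

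**Figure D2:**
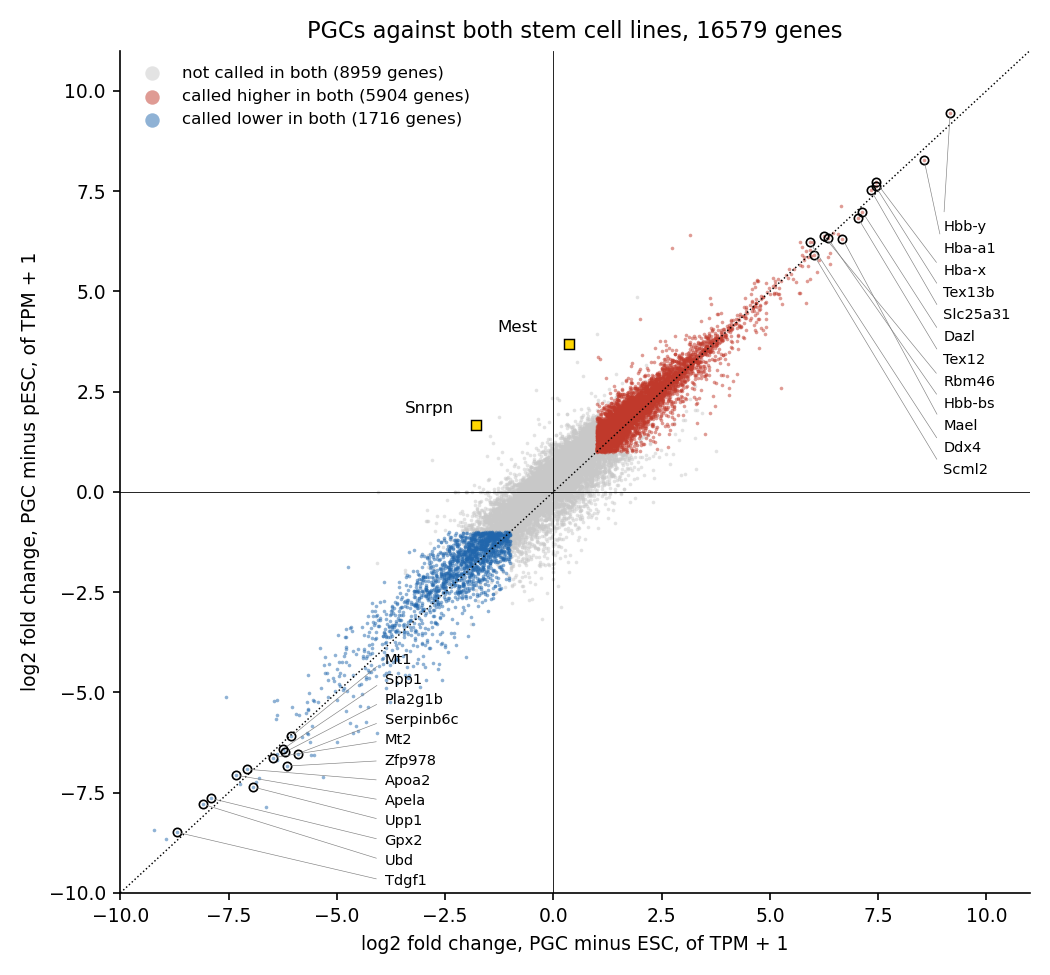
Log2 fold change of each of the 16579 genes tested in PGCs against ESCs (horizontal axis) and against pESCs (vertical axis), on the log2(TPM + 1) scale, with genes called higher in both in red and lower in both in blue. Both axes share the PGC libraries, and the 24 circled genes lie near the dotted line of equal change, while Mest (0.35 and 3.68) and Snrpn (-1.79 and 1.65), marked by squares, lie off it.

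Genes that found the germ line were mostly higher in PGCs, with 10 of 15 tested members higher, 1 lower and 4 not called, and 8 higher and 1 lower under all 3 scalings. Of the 15, 3 passed the filter only with the PGC libraries, and of the other 12 members 7 were higher. The median over all 15 was 1.94 against ESCs and 2.00 against pESCs. Dppa3 (Stella), which protects the maternal genome after fertilization, was the most abundant of them at 3165 and 4168 TPM in PGCs, 353 and 378 TPM in ESCs and 709 and 873 TPM in pESCs (log2 fold changes 3.31 ± 0.18 and 2.21 ± 0.18, adjusted p = 1.13e-05). The 3 groups did not overlap, with pESCs between ESCs and PGCs. Prdm1 (Blimp1), the repressor that starts PGC specification, was at 13.9 and 11.96 TPM in PGCs, 1.97 and 1.70 TPM in ESCs and 2.75 and 2.21 TPM in pESCs (log2 fold changes 2.29 ± 0.17 and 1.999 ± 0.17, adjusted p = 1.6e-05). Its partners did not behave as one. Tfap2c was at 17.2 and 11.3 TPM in PGCs against 3.56 to 4.60 TPM in the stem cells (log2 fold changes 1.43 ± 0.21 and 1.57 ± 0.21, adjusted p = 0.000388), a call lost after quantile normalization and centring. Prdm14 was at 19.9 and 21.7 TPM in PGCs, 17.2 and 18.1 TPM in ESCs and 10.9 and 15.03 TPM in pESCs, with log2 fold changes of 0.22 and 0.66 (adjusted p = 0.287) that turned negative after quantile normalization and centring.

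The RNA-binding survival factors of this list were higher. Dnd1, which protects germ cell mRNAs from microRNAs, was at 46.1 and 39.6 TPM in PGCs against 4.81 to 5.50 TPM in the stem cells (log2 fold changes 2.89 ± 0.17 and 2.82 ± 0.17, adjusted p = 3.35e-06). Nanos3, a translational repressor needed for PGC survival, was at 25.8 and 50.6 TPM in PGCs, 6.46 and 5.19 TPM in ESCs and 4.56 and 4.49 TPM in pESCs (log2 fold changes 2.45 ± 0.28 and 2.75 ± 0.28, adjusted p = 8.31e-05). Its PGC libraries differed from each other more than the stem cells did. Lin28a, which blocks let-7, had log2 fold changes of 1.62 and 2.21 (adjusted p = 4.85e-05), a call that was lost against ESCs after quantile normalization (0.92). Receptors of migrating PGCs were higher too. Kit, the receptor of stem cell factor, was at 21.4 and 11.6 TPM in PGCs against 3.23 to 3.59 TPM (log2 fold changes 1.94 ± 0.25 and 1.93 ± 0.25, adjusted p = 0.000165). Cxcr4, the receptor of the chemokine that guides migration, was at 6.33 and 6.25 TPM in PGCs and at 0 in all 4 stem cell libraries. At a floor of 3 reads per library it was higher by at least 39.3-fold against ESCs and at least 33.1-fold against pESCs.

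Of the sort markers, Itgb3 encodes CD61 and Fut4 makes the SSEA1 epitope, so neither is independent of how the PGCs were collected. Itgb3 was at 8.53 and 8.07 TPM in PGCs and 0 to 0.117 TPM in the stem cells, and Fut4 at 11.2 and 10.1 TPM and 0 to 0.0799 TPM. Ifitm3 (Fragilis) was the member lower in PGCs, at 834 and 435 TPM against 1928 and 1917 TPM in ESCs and 5655 and 2143 TPM in pESCs (log2 fold changes -1.67 ± 0.43 and -2.53 ± 0.43, adjusted p = 0.00753). The call was lost against ESCs without PGC replicate 2 (log2 fold change -1.20). Its neighbour Ifitm1 was not called, at 1307 and 1289 TPM in PGCs, 987 and 1057 TPM in ESCs and 3029 and 1396 TPM in pESCs, and neither were Alpl (log2 fold changes -0.26 and 0.36) and Sall4 (0.71 and 0.88). Sox17 had at most 0.0705 TPM in any of the 6 libraries and was not tested.

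All 15 tested members of the germline RNA-binding proteins were higher in PGCs, 11 of them under all 3 scalings and 5 of them tested only because of the PGC libraries, with medians of 2.57 against ESCs and 2.75 against pESCs. Dazl, the translational regulator that licenses germ cells for meiosis, lies on chromosome 17 from 50279395 to 50293636. It was at 1958 and 2095 TPM in PGCs, 13.2 and 13.6 TPM in ESCs and 12.1 and 18.7 TPM in pESCs (log2 fold changes 7.14 ± 0.19 and 6.98 ± 0.19, adjusted p = 3.27e-07). Ddx4 (mouse Vasa homologue), the RNA helicase that marks germ cells, lies on chromosome 13 from 112598333 to 112652475. Ddx4 was at 189 and 303 TPM in PGCs, 2.63 and 3.35 TPM in ESCs and 1.51 and 3.10 TPM in pESCs (log2 fold changes 5.92 ± 0.28 and 6.23 ± 0.28, adjusted p = 1.18e-06). Both genes are little expressed outside the germ line, and their levels in both PGC libraries go with the PGC label. Rbm46 was at 88.2 and 87.97 TPM in PGCs against 0 to 0.304 TPM in the stem cells (log2 fold changes 6.24 ± 0.16 and 6.38 ± 0.16, adjusted p = 2.91e-07). Cpeb1, a regulator of poly(A) tails, was at 53.1 and 37.9 TPM against 0.326 to 0.544 TPM (log2 fold changes 4.98 ± 0.19 and 5.09 ± 0.19, adjusted p = 6.26e-07). Nanos2, a gene of male germ cells, had 0.1 and 0.0708 TPM in PGCs and was not tested.

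In the piRNA pathway, which silences transposons with small RNAs, 11 of 13 tested members were higher and 1 was lower, 9 and 1 under all 3 scalings. Of the 13, 8 passed the filter only with the PGC libraries, and of the other 5 members 3 were higher. Mael, on chromosome 1 from 166201201 to 166238747, was at 203 and 195 TPM in PGCs, 0.940 and 0.971 TPM in ESCs and 1.71 and 1.33 TPM in pESCs (log2 fold changes 6.67 ± 0.15 and 6.31 ± 0.15, adjusted p = 2.91e-07). Asz1, a mitochondrial scaffold, was at 56.7 and 77.8 TPM in PGCs against 0.402 to 0.654 TPM (log2 fold changes 5.44 ± 0.18 and 5.56 ± 0.18, adjusted p = 4.58e-07). Tdrkh was at 24.7 and 39.8 TPM against 0.167 to 0.507 TPM (log2 fold changes 4.69 ± 0.23 and 4.61 ± 0.23, adjusted p = 1.61e-06). Mov10l1, the piRNA helicase, rose by log2 fold changes of 4.55 and 4.66 (adjusted p = 4.19e-07). Among the Argonaute partners of piRNAs, Piwil2 was at 27.04 and 24.1 TPM in PGCs against 0.191 to 0.349 TPM in the stem cells (log2 fold changes 4.39 ± 0.16 and 4.39 ± 0.16, adjusted p = 5.25e-07). Piwil4 at 1.11 and 0.802 TPM and Piwil1 at 0.0719 and 0.127 TPM in PGCs did not pass the filter, and both were low in every library. Tdrd12 went the other way, at 6.43 and 8.91 TPM in PGCs, 67.1 and 69.9 TPM in ESCs and 52.1 and 78.5 TPM in pESCs (log2 fold changes -3.02 ± 0.25 and -2.92 ± 0.25, adjusted p = 1.49e-05). Rnf17 was not called, at 36.6 and 52.6 TPM in PGCs against 13.2 to 22.3 TPM.

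**Figure D3:**
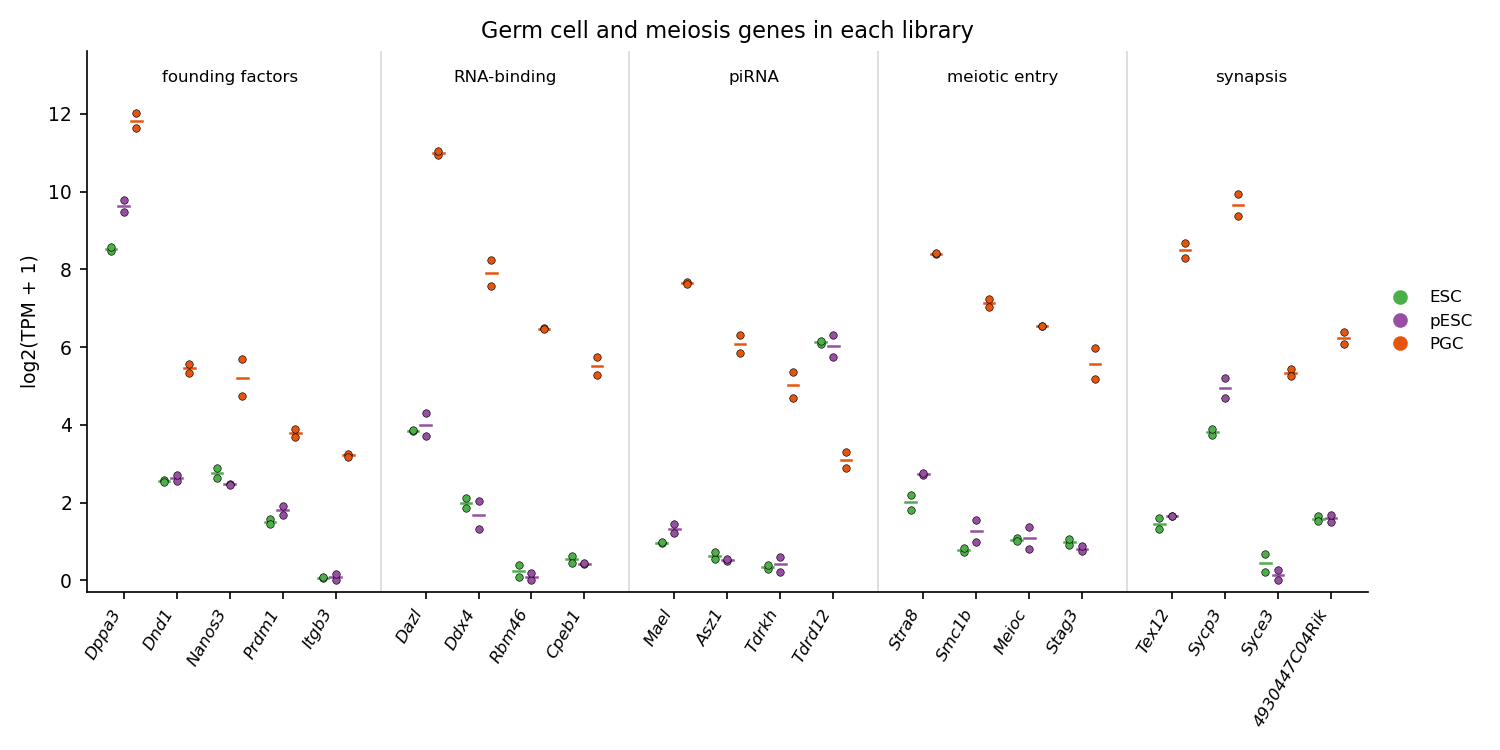
Level of germ cell and meiosis genes as log2(TPM + 1) (vertical axis) in each of the 2 ESC (green), 2 pESC (purple) and 2 PGC (orange) libraries, with a bar at the mean of each group. The PGC points lie above all stem cell points for each gene shown other than Tdrd12, where they lie below.

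Genes of meiotic entry and of the meiotic chromosome axis were already expressed in the PGC libraries. All 6 tested genes of meiotic entry and cohesin were higher under each of the 3 scalings, 2 of them tested only because of the PGC libraries, with medians of 5.03 against ESCs and 5.10 against pESCs. Stra8, which starts meiosis on the retinoic acid signal, was at 333 and 343 TPM in PGCs, 2.53 and 3.59 TPM in ESCs and 5.49 and 5.76 TPM in pESCs (log2 fold changes 6.40 ± 0.17 and 5.68 ± 0.17, adjusted p = 3.29e-07). Smc1b, a cohesin subunit of meiosis, was at 129 and 149.6 TPM in PGCs against 0.644 to 1.94 TPM in the stem cells (log2 fold changes 6.35 ± 0.20 and 5.86 ± 0.20, adjusted p = 5.25e-07). Meioc, which keeps meiotic mRNAs stable, was at 91.8 and 91.4 TPM against 0.740 to 1.599 TPM (log2 fold changes 5.49 ± 0.20 and 5.44 ± 0.20, adjusted p = 5.69e-07). The cohesin subunits Stag3 (log2 fold changes 4.58 and 4.76) and Rec8 (3.78 and 3.80) were called as well. Rad21l stayed at 0.0945 and 0.534 TPM in PGCs and was not tested, as was Gm4969, the gene of the STRA8 partner MEIOSIN, at 0.434 and 0.236 TPM.

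All 10 tested genes of the synaptonemal complex, which joins homologous chromosomes, were higher, 8 of them under all 3 scalings, and 3 passed the filter only with the PGC libraries. Tex12, a central element protein on chromosome 9 from 50556819 to 50561325, was at 409 and 313 TPM in PGCs, 2.03 and 1.49 TPM in ESCs and 2.13 and 2.16 TPM in pESCs (log2 fold changes 7.03 ± 0.20 and 6.84 ± 0.20, adjusted p = 3.27e-07). Sycp3, the axial element, was at 666 and 973 TPM in PGCs, 12.4 and 13.8 TPM in ESCs and 24.7 and 35.8 TPM in pESCs (log2 fold changes 5.84 ± 0.24 and 4.71 ± 0.24, adjusted p = 1.63e-06). Syce3 was at 41.96 and 37.2 TPM against 0 to 0.589 TPM (log2 fold changes 4.90 ± 0.20 and 5.21 ± 0.20, adjusted p = 7.21e-07). The central element gene 4930447C04Rik (Six6os1) had log2 fold changes of 4.64 and 4.64. Hormad1 was already at 49.3 to 97.5 TPM in the stem cells and at 198 and 282 TPM in PGCs (log2 fold changes 2.21 ± 0.21 and 1.52 ± 0.21, adjusted p = 0.000256). Its call and that of Hormad2 were lost against pESCs after centring, and that of Hormad2 also after quantile normalization (0.64). Of Hormad1, 9.36% of the 100-base stretches occur in Gm15529.

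Recombination genes were called less uniformly, with 11 of 16 tested higher, none lower and 5 not called, and 7 higher under all 3 scalings. Of the 9 that passed the filter through the stem cells 4 were higher. Ccnb1ip1 (HEI10), a crossover regulator, was at 52.4 and 73.2 TPM in PGCs against 2.24 to 3.80 TPM (log2 fold changes 3.87 ± 0.23 and 3.998 ± 0.23, adjusted p = 3.23e-06). Tex11, an X-linked crossover gene, was at 22.02 and 29.9 TPM against 0.637 to 0.929 TPM (log2 fold changes 3.86 ± 0.19 and 3.96 ± 0.19, adjusted p = 1.28e-06). Mnd1, a partner of the strand exchange proteins, was at 85.6 and 94.1 TPM against 11.3 to 17.7 TPM (log2 fold changes 2.83 ± 0.14 and 2.31 ± 0.14, adjusted p = 3.44e-06), with 16.2% of its stretches also in Mnd1-ps. Spo11, the nuclease that makes the breaks, was low but above the stem cells, at 5.76 and 4.09 TPM against 0.0215 to 0.118 TPM. Dmc1, the strand exchange protein itself, was at 22.02 and 15.7 TPM against 6.88 to 8.69 TPM (log2 fold changes 1.28 ± 0.21 and 1.06 ± 0.21, adjusted p = 0.00197), a call lost after quantile normalization, after centring, and against pESCs with voom on recovered reads (0.82) or without PGC replicate 1 (0.83). Rec114, Psmc3ip, Brca2 and Mlh3 were among those not called against both lines, and Rec114 at 91.1 and 145 TPM in PGCs overlapped the stem cells at 60.01 to 107 TPM. Genes of later oocytes were mixed. Figla, an oocyte transcription factor, was higher at 16.3 and 17.7 TPM against 0 to 0.201 TPM. So was Sohlh2, another, at 57.4 and 42.99 TPM against 2.31 to 3.26 TPM. The zona gene Zp3 was lower at 0 and 0.0837 TPM against 7.57 to 21.6 TPM, and the maternal effect gene Ooep was at 22.5 and 26.6 TPM against 104 to 234 TPM. In all 4 of 7 tested oocyte genes were higher and 2 lower, and 10 of the 16 in the table stayed under 1 TPM in both PGC libraries. Of the 7 tested, 3 passed the filter only with the PGC libraries, and of the other 4 members 1 was higher.

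The promoters of these germ cell genes were searched for both sequences of PRC1.6 in the 250 bases before to 50 bases after each RefSeq start (GRCm38.p6). CACGTG, which reads the same on both strands, was in 8.09% of the 27025 genes with a listed promoter and in 11.8% of tested protein-coding genes. Of the 52 germ cell and meiosis genes that were higher in PGCs (the RNA-binding, piRNA, meiotic entry, synaptonemal and recombination lists), 45 had a listed promoter and 19 of them held it (42.2%). By list the share was 60% for the synaptonemal complex (6 of 10), 53.8% for RNA-binding proteins (7 of 13), 50.0% for piRNA genes (5 of 10), 20.0% for meiotic entry (1 of 5) and 12.5% for recombination (1 of 8). TCCCGC, on either strand, was in 53.3% of the 45, in 39.8% of tested protein-coding genes, in 44.1% of those higher in PGCs and in 29% of those lower. By list TCCCGC ranged from 20% for piRNA genes (2 of 10) to 80% for meiotic entry (4 of 5). Among all protein-coding genes higher in PGCs CACGTG was in 11.4% and among those lower in 11.1%, close to the share of tested genes. The windows below, each 30 bases read 5′ to 3′ on the strand of the gene with the E-box in capitals, show it for genes with some of the largest differences. A match is a description of the sequence, and binding was not measured.
Ddx4, chr13:112652322-112652351, minus strand, 29 bases before the start: ggcgtccgcccgCACGTGcagccgtttaag
Rbm46, chr3:82876500-82876529, minus strand, 34 bases before the start: gtggggccactcCACGTGaggcacgctagg
Mael, chr1:166238950-166238979, minus strand, 223 bases before the start: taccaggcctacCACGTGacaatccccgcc
Slc25a31, chr3:40708766-40708795, plus strand, 93 bases before the start: cgcaactggaaaCACGTGttatggtcacat
Tex12, chr9:50561344-50561373, minus strand, 93 bases before the start: ccgcgagactgtCACGTGgctcgcgcgctg
Sycp3, chr10:88459511-88459540, plus strand, 64 bases before the start: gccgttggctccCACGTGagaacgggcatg
Stag3, chr5:138280327-138280356, plus strand, 170 bases before the start: cgcgctggagccCACGTGacaggactgcac
Sycp1, chr3:102936177-102936206, minus strand, 94 bases before the start: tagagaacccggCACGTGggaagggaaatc
The E-box sat at 29 to 223 bases before the start in these promoters, and Sycp3 held a further one 43 bases before its start. No such window was drawn up for Dazl and Stra8, with some of the largest differences. Matches close to either end of the searched stretch and genes without a listed promoter gave no window, so Dazl may still hold these letters. The 1 meiotic entry gene counted with the E-box was Stag3. Stra8 therefore either had no listed promoter or held no E-box in it.

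Of the PRC1.6 complex itself, 6 of 14 tested members were higher in PGCs and 1 lower, close to the 35.6% and 10.4% over all genes, and 1 each under all 3 scalings. Yaf2 was the largest rise, at 63.6 and 60.3 TPM in PGCs against 2.61 to 4.56 TPM (log2 fold changes 4.02 ± 0.22 and 3.81 ± 0.22, adjusted p = 2.84e-06). Max was at 7.58 and 7.63 TPM against 1.42 to 3.14 TPM (log2 fold changes 1.34 ± 0.24 and 1.44 ± 0.24, adjusted p = 0.00101). Rnf2, the ubiquitin ligase of the complex, was at 95.5 and 121 TPM against 27.96 to 44.3 TPM. The calls of Max and Rnf2 were lost after centring, and that of Max also after quantile normalization (0.62 against ESCs and 0.54 against pESCs). Mga, at 12.8 and 11.7 TPM against 5.97 to 8.40 TPM, and E2f6, at 7.20 and 7.02 TPM against 1.75 to 3.95 TPM, were not called. Hdac1 was the member lower in PGCs, at 10.3 and 9.74 TPM against 189.7 and 161 TPM in ESCs and 85.5 and 109.6 TPM in pESCs (log2 fold changes -3.999 ± 0.17 and -3.15 ± 0.17, adjusted p = 2.27e-06). Hdac2 was higher at 152 and 185 TPM against 36.6 to 68.9 TPM, a call lost after centring. Of the sequence of Hdac1, 24.9% of 100-base stretches occur in other genes, mainly Gm10093.

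Core and naive pluripotency genes were lower in PGCs for 16 of 30 tested, a share far above the 10.4% over all genes, 3 were higher and 11 were not called. All 16 lower calls and no higher call held under all 3 scalings, and the medians were -1.27 against ESCs and -1.22 against pESCs. Lefty2, Lefty1 and Nodal, signals of the pathway of Tdgf1, were lower. Lefty2 was at 41.2 and 44.2 TPM in ESCs, 30.5 and 41.8 TPM in pESCs and 1.14 and 1.02 TPM in PGCs (log2 fold changes -4.39 ± 0.26 and -4.14 ± 0.26, adjusted p = 4.13e-06). Lefty1 had log2 fold changes of -3.44 and -3.29, and Nodal -2.39 and -2.09. Fgf4, the autocrine FGF of stem cells, was at 42.3 and 49.2 TPM in ESCs, 30.3 and 51.3 TPM in pESCs and 0.0491 and 0.104 TPM in PGCs (log2 fold changes -5.44 ± 0.34 and -5.23 ± 0.34, adjusted p = 4.36e-06). For Lefty2 and Fgf4 the PGC libraries were near 0 and all stem cell libraries well above it.

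Among the transcription factors, Nanog was at 674 and 470.1 TPM in ESCs, 412 and 403 TPM in pESCs and 43.8 and 31.4 TPM in PGCs (log2 fold changes -3.89 ± 0.26 and -3.42 ± 0.26, adjusted p = 8.3e-06). It was lower but still measured in PGCs. Pou5f1 (Oct4), which marks PGCs as well as stem cells, was at 23.5 and 19.01 TPM in ESCs, 7.80 and 7.49 TPM in pESCs and 3.14 and 1.62 TPM in PGCs (log2 fold changes -2.75 ± 0.25 and -1.39 ± 0.25, adjusted p = 0.00109). Its TPM was low for a marker of these cells in all 6 libraries and far below that of Nanog in every stem cell library. Of the sequence stretches of Pou5f1, 0% occur in other genes. How the authors counted reads shared between genes is not given in the sources used here, and the cause of the low TPM was not tested. Sox2 was not lower, at 83.4 and 75.1 TPM in PGCs against 32.7 and 44.6 TPM in ESCs and 35.9 and 62.4 TPM in pESCs (log2 fold changes 1.03 and 0.73, not called against pESCs, where centring turned it to -0.20). Tfcp2l1, Nr0b1, Klf4, Klf2, Tbx3, Zfp42 and Tcl1 were lower, with log2 fold changes between -1.09 (Klf2) and -3.54 (Nr0b1). The call of Klf2 was lost without PGC replicate 2 (-0.74 against ESCs and -0.85 against pESCs) and that of Zfp42 against pESCs without pESC replicate 2 (-0.89). Dppa5a, an RNA-binding protein of stem cells and PGCs, was at 2207 and 2708 TPM in PGCs against 21668 to 28150 TPM, lower by log2 fold changes of -3.17 and -3.47 and still among the abundant genes. Klf5, Esrrb, Stat3, Dppa2 and Myc overlapped between PGCs and stem cells, and Dppa4 was at 146 and 112 TPM against 72.7 to 107 TPM without a call. Utf1, Mycn and Jarid2 were higher, and each of these calls was lost after median centring. That of Jarid2 was also lost after quantile normalization (0.69 against ESCs and 0.82 against pESCs). The call of Utf1 against ESCs was also lost without PGC replicate 1 (0.81).

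**Figure D4:**
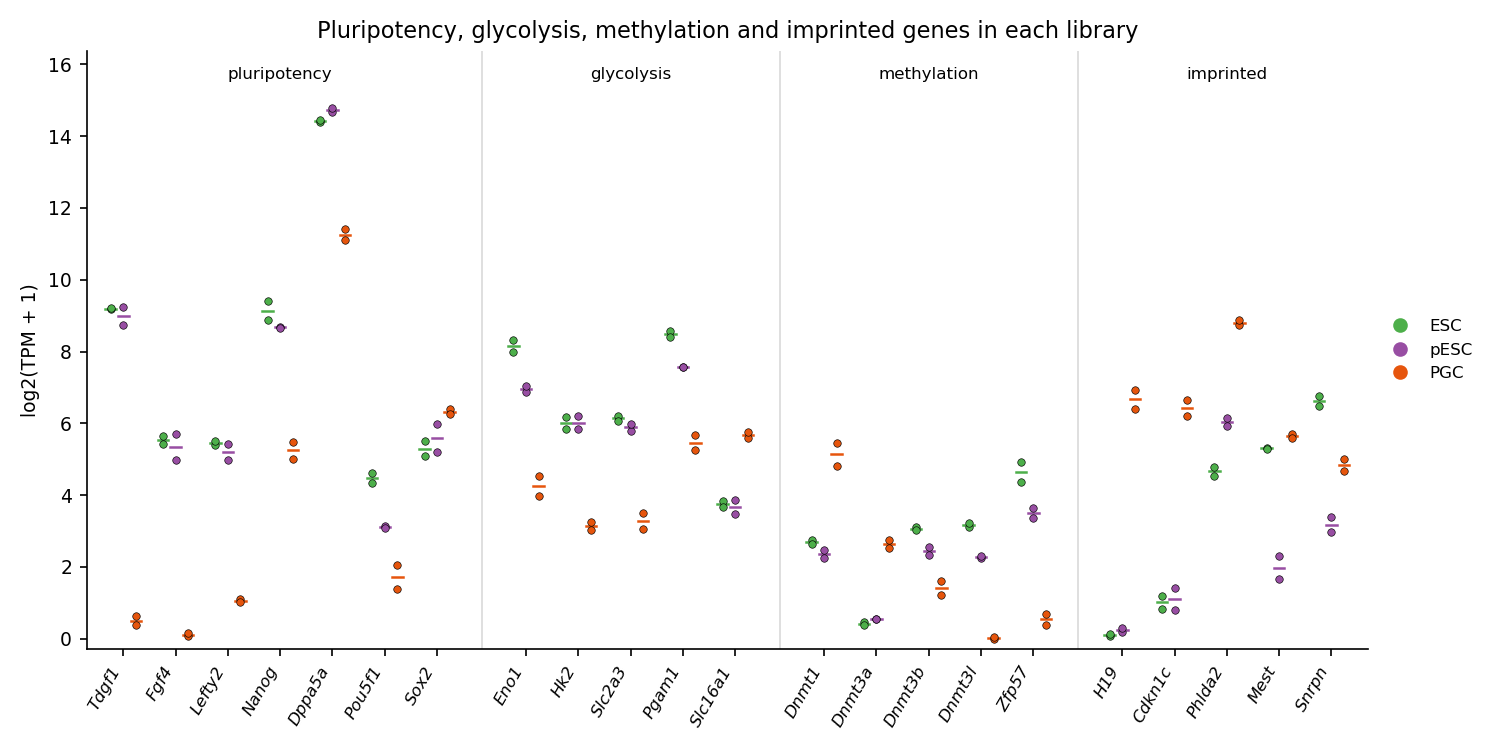
Level of pluripotency, glycolysis, DNA methylation and imprinted genes as log2(TPM + 1) (vertical axis) in each ESC (green), pESC (purple) and PGC (orange) library, with a bar at the mean of each group. PGC points are lowest for Tdgf1, Fgf4, Lefty2 and Nanog and highest for Dnmt1, H19, Cdkn1c and Phlda2, while Mest and Snrpn differ between ESCs and pESCs.

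Enzymes of glycolysis were lower in PGCs for 11 of 19 tested and higher for 1, all under the 3 scalings, with medians of -1.78 against ESCs and -1.37 against pESCs. Hk2, hexokinase of the first step, was at 56.2 and 70.8 TPM in ESCs, 56.7 and 72.1 TPM in pESCs and 7.22 and 8.55 TPM in PGCs (log2 fold changes -2.86 ± 0.20 and -2.87 ± 0.20, adjusted p = 6e-06). The glucose transporter Slc2a3 was at 73.4 and 65.4 TPM, 54.05 and 62.4 TPM and 10.4 and 7.26 TPM in the same order (log2 fold changes -2.86 ± 0.21 and -2.61 ± 0.21, adjusted p = 1.35e-05). Both genes had PGC libraries several times below every stem cell library. Eno1 was at 319.7 and 252 TPM in ESCs, 117 and 132 TPM in pESCs and 21.9 and 14.7 TPM in PGCs (log2 fold changes -3.91 ± 0.22 and -2.72 ± 0.22, adjusted p = 1.17e-05). Pgam1 had log2 fold changes of -3.02 and -2.10. These 2 genes share 20.4% and 33.9% of their 100-base stretches with other genes, mainly copies of themselves. The lactate and pyruvate transporter Slc16a1 was the member higher in PGCs, at 46.97 and 53.3 TPM against 10.1 to 13.5 TPM (log2 fold changes 1.93 ± 0.17 and 2.01 ± 0.17, adjusted p = 2.29e-05). Pkm, Aldoa, Gpi1 and the phosphofructokinases Pfkl, Pfkm and Pfkp were not called.

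Of 26 nuclear genes of the respiratory chain 2 were higher and 3 lower, and 21 were not called. Under all 3 scalings 0 were higher and 2 lower, and centring alone gave 0 and 9. The medians were -0.27 against ESCs and -0.07 against pESCs. Succinate dehydrogenase subunits split. Sdhd was at 40.9 and 44.8 TPM against 143 to 217 TPM (log2 fold changes -2.15 ± 0.22 and -1.93 ± 0.22, adjusted p = 7.22e-05), and Sdhc was lower too. Sdha was higher at 107 and 149 TPM against 27.5 to 55.4 TPM (log2 fold changes 1.18 ± 0.23 and 1.84 ± 0.23, adjusted p = 0.00180). The call of Ndufs1 against ESCs was lost after quantile normalization (0.93) and with voom (0.90). That of Cox5a against ESCs was lost after quantile normalization (-0.95) and without mitochondrial and ribosomal protein genes (-0.996), and that of Sdhc against pESCs without pESC replicate 2 (-0.99). The calls of Sdha and Ndufs1 were lost after centring, and those of Sdha, Sdhc, Ndufs1 and Cox5a were lost against 1 line without PGC replicate 2. Of the 13 mitochondrially encoded genes 2 were higher and 2 lower, with 0 and 1 under all 3 scalings. Of mt-Nd4l, 98.5% of the 100-base stretches occur in another gene, and of mt-Co1 30.8%.

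The p53 response and apoptosis list was lower for 6 of 17 tested, all under the 3 scalings, and higher for 2, neither under all 3. Cdkn1a (p21), the inhibitor that p53 induces, was at 212 and 170.4 TPM in ESCs, 151 and 136 TPM in pESCs and 22.003 and 18.3 TPM in PGCs (log2 fold changes -3.18 ± 0.19 and -2.78 ± 0.19, adjusted p = 5.04e-06). Trp53 itself was at 88.05 and 61.7 TPM in ESCs, 44.4 and 32.4 TPM in pESCs and 17.5 and 9.52 TPM in PGCs (log2 fold changes -2.42 ± 0.30 and -1.48 ± 0.30, adjusted p = 0.00211). Pmaip1 (Noxa), a pro-apoptotic protein, was at 1.42 and 1.59 TPM in PGCs against 5.63 to 19.4 TPM (log2 fold changes -2.86 ± 0.30 and -1.56 ± 0.30, adjusted p = 0.00156). Bax, another, had log2 fold changes of -2.09 and -1.10, with the call against pESCs lost without pESC replicate 1 or without PGC replicate 2 (-0.92 each). In each of these genes both PGC libraries lay below all stem cell libraries. The call of Ccng1 was lost against pESCs without pESC replicate 2 (log2 fold change -0.78). Among cyclins and cell cycle inhibitors 8 of 20 were higher, near the 35.6% over all genes, and 1 lower, with 4 and 1 under all 3 scalings. Of the 18 that passed the filter through the stem cells 6 were higher. Cdkn1c (p57), an imprinted inhibitor, moved opposite to Cdkn1a, at 98.5 and 73.1 TPM in PGCs against 0.725 to 1.64 TPM (log2 fold changes 5.41 ± 0.25 and 5.33 ± 0.25, adjusted p = 1.17e-06). Rb1, the retinoblastoma protein, was at 34.7 and 39.3 TPM against 3.58 to 7.09 TPM (log2 fold changes 2.25 ± 0.18 and 2.82 ± 0.18, adjusted p = 1.39e-05). Mki67, expressed in cycling cells, was also higher (2.02 and 2.19), while Pcna was at 273 and 331 TPM against 457 to 642 TPM and was not called against both lines.

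Of the genes of DNA methylation and demethylation, 5 of 16 tested were higher and 4 lower, with 4 and 4 under all 3 scalings. The share of higher genes was near the 35.6% over all genes. Without PGC replicate 2 there were 8 higher, and quantile normalization gave 7 lower. Dnmt1, which copies methylation at replication, was at 43.03 and 27.3 TPM in PGCs, 5.74 and 5.25 TPM in ESCs and 3.78 and 4.55 TPM in pESCs (log2 fold changes 2.44 ± 0.22 and 2.78 ± 0.22, adjusted p = 2.28e-05). Its recruiting partner Uhrf1 was at 17.1 and 12.01 TPM in PGCs against 19.4 to 32.2 TPM and was not called. Of the de novo enzymes, Dnmt3a was higher at 5.72 and 4.70 TPM against 0.298 to 0.472 TPM (log2 fold changes 2.21 ± 0.16 and 2.08 ± 0.16, adjusted p = 8.67e-06). Dnmt3b was lower at 2.03 and 1.30 TPM against 3.99 to 7.61 TPM (log2 fold changes -1.66 ± 0.19 and -1.03 ± 0.19, adjusted p = 0.00106), a call lost against pESCs without pESC replicate 2 (-0.92) or PGC replicate 2 (-0.83). Their cofactor Dnmt3l was at 0 and 0.0370 TPM in PGCs against 7.59 and 8.39 TPM in ESCs and 3.73 and 3.90 TPM in pESCs (log2 fold changes -3.14 ± 0.15 and -2.24 ± 0.15, adjusted p = 5.91e-06). Zfp57, which holds methylation on imprints, was at 0.621 and 0.292 TPM in PGCs, 29.3 and 19.6 TPM in ESCs and 9.29 and 11.4 TPM in pESCs (log2 fold changes -4.11 ± 0.27 and -2.96 ± 0.27, adjusted p = 2.26e-05). Its fellow imprint binder Zfp445 and the H3K9 methyltransferases Setdb1 and Ehmt1 were higher, with Setdb1 at 28.9 and 31.5 TPM against 4.57 to 7.32 TPM (log2 fold changes 1.96 ± 0.16 and 2.33 ± 0.16, adjusted p = 1.41e-05). The call of Zfp445 was lost after quantile normalization (0.84 against ESCs and 0.75 against pESCs) and after centring (0.84 and 0.67). Tdg, a glycosylase of demethylation, was lower (-1.94 and -1.33), with 22.6% of its 100-base stretches also in other genes. Tet1 and Tet2, which oxidize methylcytosine, were at 13.9 and 12.96 TPM and 1.83 and 1.08 TPM in PGCs against 12.6 to 20.1 TPM and 2.05 to 3.12 TPM, without a call.

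Maternally expressed imprinted genes were higher for 13 of 18 tested and lower for 2, with 9 and 2 under all 3 scalings. Paternally expressed ones were higher for 8 of 18 (44.4%, against 35.6% over all genes) and lower for 2, with 4 and 2. Of the maternal list 6 passed the filter only with the PGC libraries, and 7 of the other 12 were higher. Of the paternal list 5 passed in that way, and 5 of the other 13 were higher. The medians were 1.94 against ESCs and 2.07 against pESCs for the maternal list and 0.68 against ESCs and 1.18 against pESCs for the paternal list (1.30 against pESCs with its member at 0 in a group set to its bound). H19, a non-coding RNA of growth control, was at 120.5 and 84.01 TPM in PGCs, 0.0441 and 0.103 TPM in ESCs and 0.139 and 0.234 TPM in pESCs (log2 fold changes 6.57 ± 0.21 and 6.42 ± 0.21, adjusted p = 4.82e-07). Phlda2, which restrains placental growth, was at 428 and 466 TPM in PGCs, 26.6 and 22.1 TPM in ESCs and 60.1 and 70.4 TPM in pESCs (log2 fold changes 4.15 ± 0.15 and 2.76 ± 0.15, adjusted p = 2.35e-06). Cd81 was lower at 42.4 and 32.6 TPM against 191 to 333 TPM. Among the paternally expressed genes, Peg3 was at 55.2 and 53.8 TPM in PGCs, 6.92 and 7.01 TPM in ESCs and 2.19 and 3.41 TPM in pESCs (log2 fold changes 2.80 ± 0.18 and 3.89 ± 0.18, adjusted p = 4.43e-06). Ndn (necdin) had log2 fold changes of 3.25 and 3.68. Igf2 was at 9.51 and 8.88 TPM in PGCs against 0 to 0.152 TPM, with 59.3% of its stretches also in Gm49394. Impact was lower, at 30.1 and 43.96 TPM against 188 and 185 TPM in ESCs and 86.3 and 150 TPM in pESCs (log2 fold changes -2.32 ± 0.34 and -1.62 ± 0.34, adjusted p = 0.00244). Mest and Snrpn depended on the stem cell line. Mest was at 51.5 and 47.1 TPM in PGCs, 38.96 and 37.8 TPM in ESCs and 2.13 and 3.92 TPM in pESCs, so it was higher than in pESCs and not called against ESCs (log2 fold changes 0.35 and 3.68, with -0.24 against ESCs after centring). Snrpn was at 24.3 and 31.02 TPM in PGCs, 108 and 88.4 TPM in ESCs and 6.80 and 9.46 TPM in pESCs, lower than in ESCs and higher than in pESCs (-1.79 and 1.65). The latter call was lost after quantile normalization (0.87) and centring (0.73).

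Genes of the signals that act on PGCs, with ligands, receptors and transducers beside target genes, were higher for most tested members. Part of these passed the filter only with the PGC libraries, and the activity of the signals was not measured. For BMP, 12 of 15 tested were higher and none lower, 9 under all 3 scalings, with medians of 1.95 against ESCs and 2.75 against pESCs. Of the 11 BMP members that passed the filter through the stem cells 8 were higher. Id1, a direct target of BMP, was at 141 and 86.7 TPM in PGCs against 2.69 to 4.42 TPM (log2 fold changes 4.42 ± 0.24 and 4.84 ± 0.24, adjusted p = 2.28e-06). Msx1, a homeobox target, was at 30.1 and 23.9 TPM against 0.0367 to 0.105 TPM (log2 fold changes 4.69 ± 0.16 and 4.72 ± 0.16, adjusted p = 5.25e-07). Msx2 (log2 fold changes 4.10 and 4.29) and the receptor Bmpr1a (2.92 and 3.18) were also higher. Id3 was at 104 and 96.99 TPM in ESCs but 17.2 and 21.4 TPM in pESCs, against 255 and 168 TPM in PGCs. Its call against ESCs was lost after centring, with voom on recovered reads (0.86) and without ESC replicate 2 (0.99) or PGC replicate 1 (0.74). In the FGF list 9 of 14 were higher and 2 lower, all under the 3 scalings. Of the 9 FGF members that passed the filter through the stem cells 4 were higher. The receptor Fgfr3 was at 9.61 and 6.51 TPM against 0.0152 to 0.0940 TPM (log2 fold changes 3.08 ± 0.22 and 3.14 ± 0.22, adjusted p = 7.75e-06). Spred1, a feedback inhibitor, was at 30.6 and 27.98 TPM against 1.68 to 3.08 TPM (log2 fold changes 2.94 ± 0.17 and 3.31 ± 0.17, adjusted p = 2.79e-06). The lower members were the ligand Fgf4 and another feedback inhibitor, Spry2. Spry2 was at 65.1 and 76.96 TPM against 197 to 389 TPM (log2 fold changes -1.67 ± 0.30 and -2.38 ± 0.30, adjusted p = 0.00106). For Wnt, 8 of 14 were higher, 4 under all 3 scalings, and none lower by TPM as deposited. Of the 11 Wnt members that passed the filter through the stem cells 5 were higher. Ctnnb1 (β-catenin) was at 251 and 269 TPM against 25.6 to 47.2 TPM (log2 fold changes 2.44 ± 0.20 and 2.98 ± 0.20, adjusted p = 1.58e-05). Axin2, a feedback gene, was at 16.5 and 9.27 TPM against 1.07 to 1.40 TPM (log2 fold changes 2.56 ± 0.25 and 2.58 ± 0.25, adjusted p = 3.85e-05). Markers of gonadal somatic cells were at a summed 243 and 215 TPM in PGCs and 10.1 to 15.7 TPM in the stem cells, and their part in these lists was not tested.

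For retinoic acid, 7 of 10 tested members were higher and none lower by TPM as deposited, 5 under all 3 scalings. Of the 6 that passed the filter through the stem cells 4 were higher. Beside Stra8, the synthesizing enzyme Aldh1a1 was at 17.1 and 15.1 TPM in PGCs against 0 to 0.0935 TPM in the stem cells, higher by at least 274-fold against ESCs at the same floor. The part of the gonadal somatic markers in this list was not tested either. The binding proteins Crabp1 (2.50 and 2.51) and Crabp2 (1.66 and 2.12) were also called. Genes of early lineages were higher for 8 of 11 and lower for 1, 4 and 1 under all 3 scalings. Of these 11, 6 passed the filter only with the PGC libraries, and of the other 5 members 2 were higher. Gata6, of endoderm and heart, was at 12.3 and 9.36 TPM against 0 to 0.0722 TPM (log2 fold changes 3.53 ± 0.20 and 3.50 ± 0.20, adjusted p = 2.66e-06). Krt18, of epithelia, was at 20.9 and 19.6 TPM against 1.19 to 2.34 TPM (log2 fold changes 2.79 ± 0.19 and 3.27 ± 0.19, adjusted p = 5.2e-06). Of the epithelial and adhesion genes 6 of 18 were higher and 2 lower (10 and 4 with a pseudocount of 0.1), near the 35.6% and 10.4% over all genes, and 3 and 2 under all 3 scalings. Tjp1 (ZO-1), of tight junctions, was at 44.3 and 43.7 TPM against 1.41 to 3.06 TPM (log2 fold changes 3.57 ± 0.23 and 3.85 ± 0.23, adjusted p = 4.74e-06). Epcam, an epithelial adhesion molecule, had log2 fold changes of 2.56 and 2.95. Cd9, a tetraspanin of the surface, was lower at 185 and 161 TPM against 869 to 1126 TPM (log2 fold changes -2.67 ± 0.16 and -2.48 ± 0.16, adjusted p = 3.88e-06). Cdh1 (E-cadherin) was at 27.01 and 17.9 TPM against 23.7 to 31.5 TPM without a call.

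**Figure D5:**
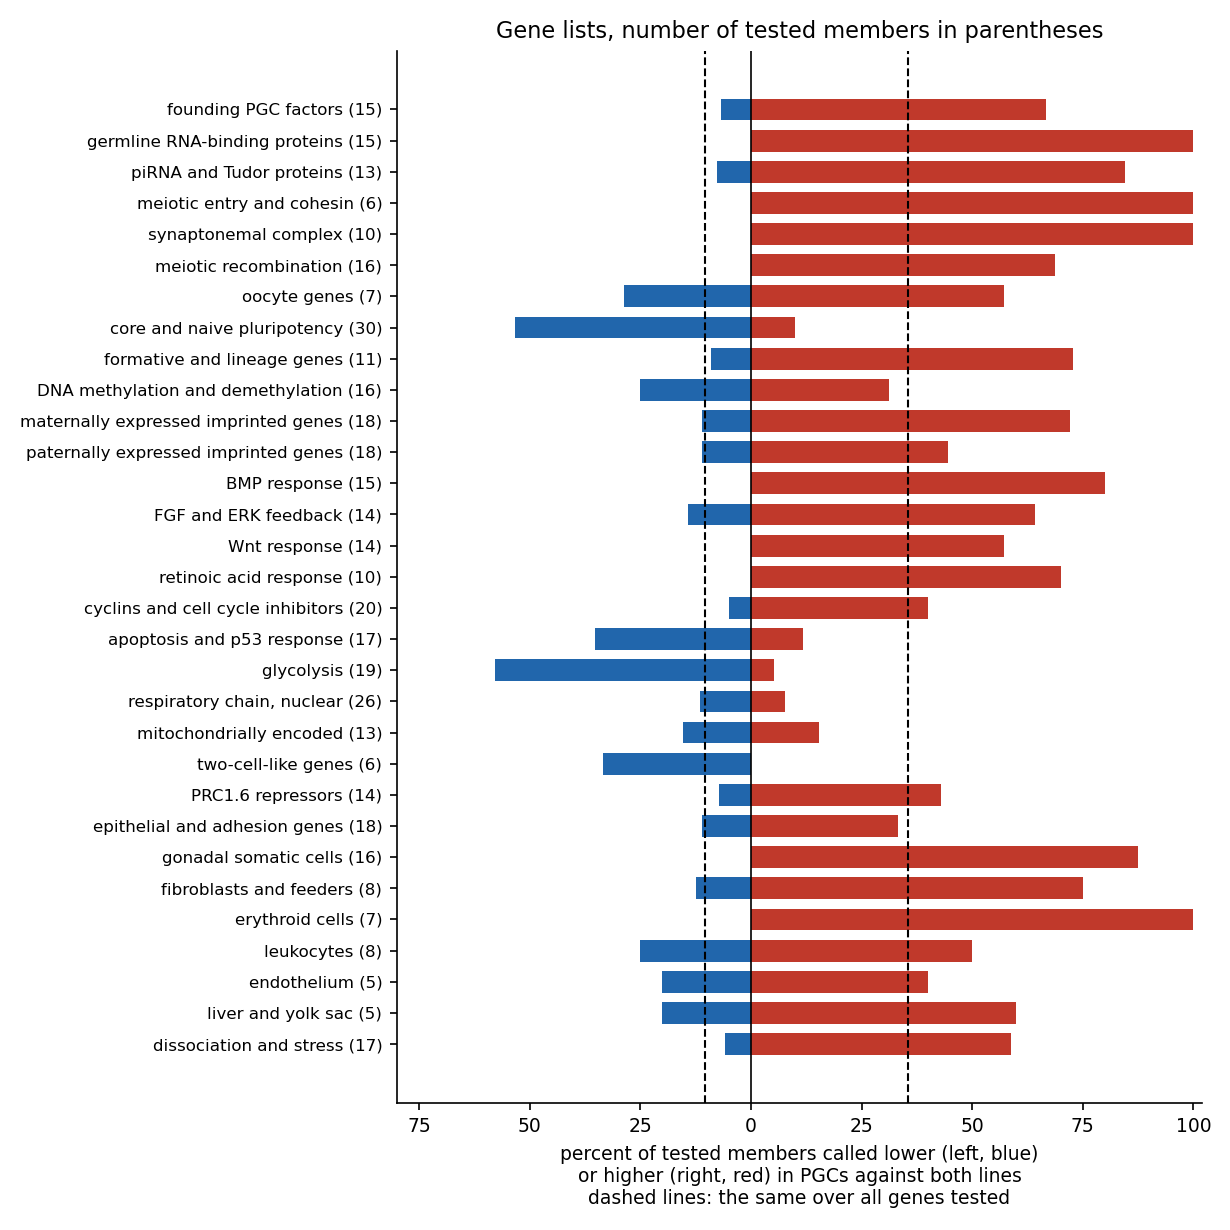
Percent of the tested members of each gene list that were called lower (left, blue) or higher (right, red) in PGCs against both stem cell lines, with the number tested in parentheses and dashed lines at the shares over all genes, 10.4% and 35.6%. Germline RNA-binding, meiotic entry, synaptonemal and erythroid lists reach 100% to the right and gonadal somatic cells 87.5%, while glycolysis and pluripotency reach furthest to the left.

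Among markers of other cell types, gonadal somatic genes and haemoglobin genes summed to more in the PGC libraries than in the stem cells. Gonadal somatic genes, which mark the cells around PGCs in the gonad, summed to 243 and 215 TPM in PGCs and to 10.1 to 15.7 TPM in the stem cells, and 14 of 16 tested were higher, 12 under all 3 scalings. Of these 16 tested, 12 passed the filter only with the PGC libraries, so the count is no support for a rise, and 2 of the other 4 members were higher. Kitl, the ligand of Kit, was at 61.3 and 70.6 TPM in PGCs against 0.0578 to 0.275 TPM in the stem cells (log2 fold changes 5.73 ± 0.15 and 5.92 ± 0.15, adjusted p = 2.91e-07). Wt1, of gonadal precursors, was at 26.2 and 22.4 TPM against 0 to 0.0931 TPM, and Lhx9 at 16.3 and 19.1 TPM against 0 to 0.00886 TPM. The defining supporting cell gene Foxl2 was at 1.64 and 0.782 TPM in PGCs, and Cyp11a1, of steroid cells, at 0.0979 and 0.138 TPM. Erythroid genes summed to 2202 and 1990 TPM in PGCs and to 0.941 to 5.07 TPM in the stem cells, and all 7 tested were haemoglobins and higher under each scaling, 6 of them tested only because of the PGC libraries. Hbb-y, an embryonic chain on chromosome 7 from 103851749 to 103853216, was at 1153 and 1113 TPM in PGCs against 0 to 1.64 TPM (log2 fold changes 9.16 ± 0.38 and 9.45 ± 0.38, adjusted p = 7.99e-07). Hba-a1, an alpha chain, was at 582 and 450.1 TPM against 0 to 1.70 TPM and Hbb-bs at 74.9 and 84.5 TPM against 0. Of Hba-a1 and Hbb-bs, 63.3% and 49.7% of the stretches are shared with Hba-a2 and Hbb-bt. The erythroid genes Alas2, Slc4a1, Klf1, Epor and Epb42 were each at most 0.921 TPM in PGCs.

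The remaining marker lists summed to less in PGCs than in most stem cell libraries. For leukocytes, liver and fibroblasts most of the stem cell sum was a single gene, so these sums do not show how much of a cell type was present. Leukocyte genes summed to 24.2 and 20.7 TPM in PGCs and 48.8 to 88.1 TPM in the stem cells, with 4 of 8 higher, 1 of them (Tyrobp) under all 3 scalings, and 2 lower. Cd68 made up most of the stem cell sum, at 42.3 to 75.3 TPM against 2.74 and 1.94 TPM in PGCs, and the other lower gene was Laptm5. Ptprc (CD45) was at 0.103 TPM in both PGC libraries and Tyrobp at 9.17 and 6.14 TPM. Endothelial genes summed to 69.8 and 47.6 TPM against 69.2 to 105 TPM (2 of 5 higher, 1 lower, and 0 and 3 after quantile normalization and after centring). Liver and yolk sac genes summed to 11.8 and 13.8 TPM against 111 to 147 TPM (3 of 5 higher, 1 under all 3 scalings, and 1 lower, that being Apoa2). Apoa2, at 109.8 to 145 TPM in the stem cells and 0 in both PGC libraries, made up most of the stem cell sum. Fibroblast genes, of the cell type used as feeders, summed to 67.3 and 56.9 TPM against 109 to 172 TPM, most of it Sparc, and Col1a1, Col1a2 and Thy1 were under 1 TPM in all 6 libraries. Of 8 tested 6 were higher in PGCs, only Col3a1 under all 3 scalings, and Sparc was lower. Of the tested genes 5 of 8 leukocyte, 4 of 5 liver, 7 of 8 fibroblast and 9 of 17 dissociation genes passed the filter only with the PGC libraries. Of the members that passed through the stem cells, 0 of 3 leukocyte, 0 of 1 liver and 0 of 1 fibroblast genes were higher. Dissociation genes were higher for 10 of 17 and lower for 1, with 4 and 1 under all 3 scalings. Only 1 of the 8 dissociation genes that passed through the stem cells was higher, so the count is no support for a rise of the list. Fos, induced when tissue is dissociated, was at 101 and 65.4 TPM in PGCs against 0.0484 to 0.692 TPM (log2 fold changes 5.69 ± 0.21 and 6.23 ± 0.21, adjusted p = 5.25e-07). Egr1, induced likewise, was at 20.6 and 13.8 TPM against 0.0188 to 0.0515 TPM, while Junb was lower at 3.47 and 2.07 TPM against 10.4 to 21.6 TPM. The part of these other cells and of dissociation in the results was not tested.

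Xist, the RNA of the inactive X, was at 4.57 and 2.60 TPM in PGCs (524 and 422 reads) and at 0.127 to 0.291 TPM in the stem cells (21 to 62 reads), with log2 fold changes of 1.89 and 1.88 (adjusted p = 0.000122). The call was lost against pESCs after centring (0.96). Its antisense partner Tsix was at 9.60 and 5.14 TPM in PGCs and 0.393 to 0.595 TPM in the stem cells, and since no strand is stated for the counting, reads of the pair cannot be told apart. The Y-linked genes Ddx3y, Kdm5d and Uty had at most 1 read in any of the 6 libraries, so the Y chromosome was not detectable at this depth in cells labelled or described as female.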

How the data were processed

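RNA-seq values were deposited as TPM, 1 table for the 10 libraries. According to the methods and processing notes, the authors aligned reads to mm10 with HISAT2 and counted them per gene, and the notes also name Bowtie2, RSEM, R 3.4.2 and DESeq2. The methods describe Smart-seq2 from few cells, while the labels describe an RNA kit and NEBNext libraries. Strand use in counting is not given in the sources used here. Gene lengths, biotypes and coordinates came from GENCODE M21 (GRCm38), which matched 35859 of 36066 symbols. TPM times exon length gave whole reads for 95.1% to 95.4% of values (tolerance 0.05), and 3 reads at the median exon length of 2183 nt stood for 0.116 to 0.215 TPM in the 6 libraries. Such floors reflect counting error alone.

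Values were tested as log2(TPM + 1), pseudocount 1, with limma 3.58.1 (limma-trend, R 4.3.3) on the means of all 5 groups, for genes reaching 1 TPM in 2 or more of the 6 libraries, and Benjamini-Hochberg adjustment ran over all 16579 genes. Calls needed a 2-fold difference with adjusted p below 0.05, the same way in both comparisons. The pESC minus ESC difference was tested in the same fit. Python 3.11.15 with pandas 2.3.3 drew up the tables, and matplotlib 3.10.9 the plots. The code was tested on simulated data. Alternatives were other scalings, filters, pseudocounts and folds, voom on recovered reads, a replicate block and leaving out each library. The count of genes called under all 3 scalings was added after seeing the data. Medians of lists take fitted values.

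Named genes were the 12 largest protein-coding changes each way with PGC libraries beyond all stem cell libraries, exons of at least 200 nt and at least 10 TPM, up to 4 called members each way in each list, all founding factors, members at 0 or not called, and Xist with the Y-linked genes. Outside this rule and chosen after their values were seen were Mest, Snrpn, Gm38393, Tsix, Bax, Crabp2, Dmc1, Dppa5a, Hormad1, Hormad2, Id3, Klf2, Klf4, Lefty1, Mnd1, Nodal, Nr0b1, Phlda2, Piwil2, Pou5f1, Rec8, Rnf2, Spo11, Sycp1, Tbx3, Tcl1, Tfcp2l1, Zfp42 and Zfp445. The members and gene lists were chosen with earlier results of these data known. Some members of the lists are counted but not reported by name here.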

Additional observations from a re-analysis of the deposited data

Results flagged for a closer look

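Among the named genes, 13 differed between the stem cell lines themselves (pESC minus ESC called in the same limma fit), so the PGC difference depended on the line. The imprinted genes were among the largest. Snrpn differed by -3.45 on the log2 scale (adjusted p = 0.000898), Mest by -3.33 (0.000898), Gm38393 by -3.12 (0.000687) and Peg3 by -1.09 (0.0298), each lower in pESCs. Of Gm38393, 6.42% of the 100-base stretches occur in other genes, mainly Snrpn. Phlda2, maternally expressed, was higher in pESCs by 1.39 (0.013).

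Of germ cell genes, Dppa3 was higher in pESCs by 1.10 (0.0275) and Sycp3 by 1.13 (0.04). Lower in pESCs were Id3 by -2.33 (0.0105), Utf1 by -1.61 (0.0306), Pou5f1 by -1.36 (0.0323), Pmaip1 by -1.30 (0.047), Eno1 by -1.19 (0.0312) and Zfp57 by -1.15 (0.0483). Apart from Snrpn and Gm38393, these genes had the same direction of change in PGCs against both lines by TPM as deposited.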

How the results depend on the processing

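Of 190 named genes called against both lines, none lost its call with a pseudocount of 0.1, no filter, the 6 libraries alone or an unadjusted p, 1 did without mitochondrial and ribosomal protein genes (Cox5a), 3 with voom on recovered reads (Dmc1, Id3 and Ndufs1), 23 after quantile normalization, 33 after centring and 66 at 4-fold. Leaving out 1 library ended 2 to 10 of these calls, most without PGC replicate 2, and genes called against both lines ranged from 5507 to 6188 higher and 1538 to 1776 lower.

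Quantile normalization gave 3710 higher against ESCs, 3744 higher and 3539 lower against pESCs, and 3250 and 2939 against both. Centring gave 3448 and 4108, 2828 and 4487, and 2592 and 3606. Under all 3 scalings 4238 genes were called, 2543 of them higher. A filter of 5 TPM gave 4059, 4752 and 3886 higher genes against ESCs, pESCs and both, from fewer genes tested. At 4-fold 3171 were called against ESCs (2200 higher, 971 lower), 3449 against pESCs (2639 and 810) and 2665 against both (1989 and 676).

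Directions turned only in genes not called in the comparison named. After quantile normalization Alpl against pESCs was at -0.51 and Prdm14 at -0.23 against ESCs and -0.15 against pESCs. After centring Alpl against pESCs was at -0.57, Prdm14 at -0.37 and -0.27, Ifitm1 at -0.25 and Mest at -0.24 against ESCs, and Sall4 at -0.050 and Sox2 at -0.20 against pESCs. Alpl ranged from -0.77 to 0.26 against ESCs and from -0.16 to 0.87 against pESCs when 1 PGC replicate was left out. The cause was not tested.

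Replicate numbers are shared by all groups, but the labels do not say that a number marks a batch, and deviations of same-numbered libraries correlated at 0.047 (ESC and pESC), 0.073 (ESC and PGC) and 0.239 (pESC and PGC), so the numbers were not taken as pairs. With a replicate block 5913 genes were higher and 1722 lower, and no named call was lost. A gene of median length with 0.116 to 0.215 TPM rests on 3 reads, so differences at such levels were not detectable.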

Other observations

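The following groups were chosen after their values were seen and carry no test of the group. The Rhox homeobox genes, an X-linked cluster expressed in reproductive tissues, summed to 2079 to 2687 TPM in PGCs and 97.6 to 242 TPM in the stem cells, and 21 of 23 tested were higher in PGCs, 17 under all 3 scalings. Rhox members that passed the filter only with the PGC libraries were not counted apart, so this count is no support for a rise. The metallothioneins, which bind metals, summed to 79.7 to 115 TPM in PGCs and 7035 to 8902 TPM in the stem cells, and 3 of 4 tested were lower. Of the KRAB zinc finger genes Zfp978 to Zfp990, 11 of 13 tested were lower and 1 was higher, and these genes share sequence, so their reads may have been split.

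Genes of the 2-cell stage were lower for 2 of 6 tested, and for all 6 both PGC libraries lay below every stem cell library. The count was 5 with a pseudocount of 0.1, after quantile normalization, after centring or without ESC replicate 1, 4 without mitochondrial and ribosomal protein genes, 6 with voom and 1 with a filter of 5 TPM. Zscan4a, a telomere gene of rare 2-cell-like stem cells, was at 0 in both PGC libraries against 1.29 to 4.02 TPM, lower by at least 15.1-fold against ESCs and at least 11.3-fold against pESCs at a floor of 3 reads per library, with 39.1% shared sequence, mainly with Zscan4f. Eif1a, a translation factor, was at 45.7 and 52.02 TPM in PGCs against 258 to 373 TPM.

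Protein-coding genes of the X chromosome were higher in PGCs for 267 of 485 (55.1%), against 4565 of 11370 autosomal genes (40.2%). Genes that passed the filter only with the PGC libraries, 68.7% of them higher over all genes, are in both counts. They were not counted apart by chromosome, so the shares and medians here are no support for a difference between X and autosomes. Under all 3 scalings the shares were 34.4% and 17.4%. The median log2 fold change was 1.25 against ESCs and 1.42 against pESCs for X-linked genes, and 0.74 and 0.99 for autosomal genes. Single autosomes ranged from 31.7% to 45.4%, below the X. Without the Rhox and Tex genes the X-linked share was 53.3% of 462, with medians of 1.199 and 1.35.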
